A study of Mus musculus with 10 samples.

Results

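The Rab genes of mouse platelets are the subject here, taken as every row of the count tables whose symbol is Rab followed by a number, with at most 1 further letter and 1 further digit. That gave 59 genes of 53819 gene symbols. RNA of platelets was sequenced from mice of 2 ages, with 5 P7 libraries (A, B, C, E, I), read here as postnatal day 7, and 5 adult libraries (A, B, C, G, H). No treatment or genetic change is named for either group, and the sources used here do not state the strain, the sex or the exact age of the adults. The sources also do not say whether the libraries came from separate animals, and p-values here reflect the spread among these libraries, which may be technical.

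Rab proteins are small GTPases that act as switches on membranes. In the GTP-bound state each Rab marks a compartment and recruits effectors such as tethers, motor adaptors and fusion factors. Exchange factors load GTP, GTPase-activating proteins return the Rab to the GDP form, and GDP dissociation inhibitors lift it off the membrane. Platelets depend on this traffic to build their alpha and dense granules, to release them on activation and to cycle surface receptors, and they inherit most of their mRNA from megakaryocytes.

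Libraries held 19431863 to 25029931 counts at P7 and 19541997 to 23291269 in adults, so 3 counts stood for 0.120 to 0.154 CPM. The 11 platelet markers examined summed to 56132 to 79808 CPM in P7 and 54367 to 84449 CPM in adult libraries. Single markers differed, 4 of the 11 being called higher and 2 lower at P7 (edgeR's test, described below). Of markers of other blood cells, 14 erythroid genes summed to 909 to 2521 CPM in P7 and 551 to 1755 CPM in adult libraries, and 12 neutrophil genes to 1.17 to 4.38 CPM in P7 and 0.0573 to 0.773 CPM in adult libraries, with Cxcr2 and Ly6g at 0 counts in every library. Lists of 10 genes each gave 1.96 to 6.79 CPM in P7 and 2.86 to 5.18 CPM in adult libraries for monocytes and 7.88 to 26.7 CPM in P7 and 2.98 to 6.16 CPM in adult libraries for B cells. The 12 T and NK cell genes summed to 8.20 to 11.8 CPM in P7 and 12.2 to 20.98 CPM in adult libraries, and 10 endothelial genes, several of them also expressed by platelets, to 2862 to 6021 CPM in P7 and 3296 to 4291 CPM in adult libraries. Neutrophil and B cell sums were higher in every P7 library than in every adult library and T and NK cell sums lower. The part of these sums in the Rab results was not tested.

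Among the Rab genes, Rab36, Rab4a, Rab4b, Rab13 and Rab1b were higher at P7, and Rab18, Rab9, Rab31, Rab8b, Rab5a, Rab11a, Rab22a and Rab14 were lower. Endosomal Rab genes, 11 of the 41 tested, supplied 5 of the 8 decreases and none of the increases. Of Rab genes of secretory granules only 4 were tested, and none passed. The classes were set with earlier results of these data known, so these counts are a description without a test. Of the 59 genes, 41 had enough counts to be tested, and 13 passed at a Benjamini-Hochberg adjusted p under 0.05 (edgeR's quasi-likelihood test over 8198 genes). Over all tested genes 27.7% passed, 13.8% higher and 13.9% lower at P7, against 31.7% of the tested Rab genes, so the family as a whole changed about as often as other genes did. Groups did not overlap for 8 of the 41, against 19.8% of all genes tested. The median log2 fold change (P7 over adult, as throughout) was 0.06 over the tested Rab genes and 0.05 over all tested genes. Levels are counts scaled to library size after TMM correction, as CPM, and ± is the SE for a log2 fold change and the SD over 5 libraries for a level. In RNA from bulk platelets, a change in which platelets were sampled and a change in RNA per platelet cannot be told apart.

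**Figure D1:**
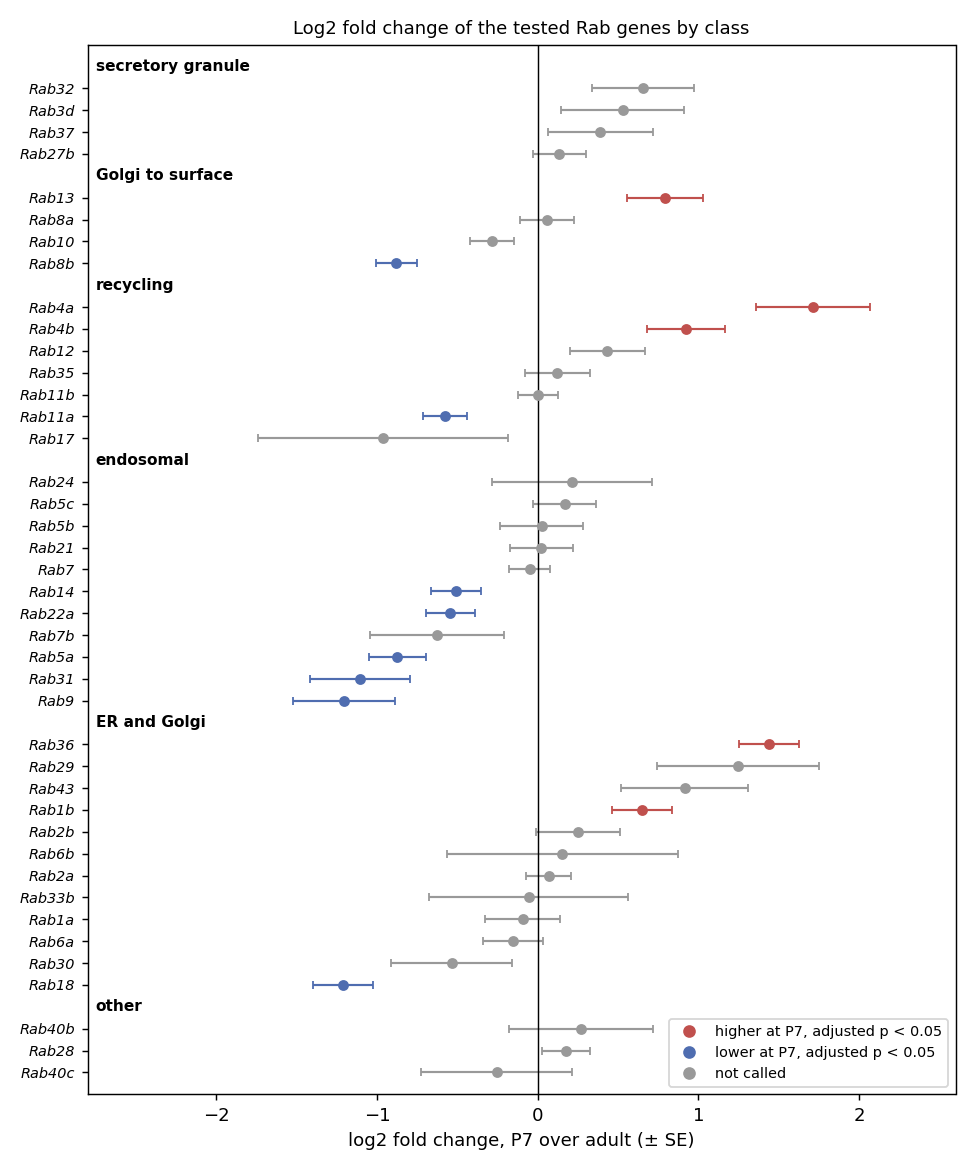
Log2 fold change (P7 over adult, with SE bars) of the 41 tested Rab genes on the horizontal axis, grouped by the membrane step they serve. The 5 genes in red were higher and the 8 in blue lower at P7, with values from -1.21 for Rab18 to 1.72 for Rab4a. The secretory class has 4 tested members, none of them called.

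Summed over members, Rab counts came to 3638 to 3992 CPM in P7 and 3768 to 4848 CPM in adult libraries, with adult C, at 3768 CPM, inside the P7 range. Endosomal Rab genes summed to 469 to 607 CPM in P7 and 650.2 to 872 CPM in adult libraries, recycling Rab genes to 538 to 714 CPM in P7 and 776 to 903 CPM in adult libraries, and the class that carries cargo from the Golgi to the cell surface to 731 to 915 CPM in P7 and 960.0 to 1252 CPM in adult libraries. In each of these 3 classes every P7 library lay below every adult library. Sums of the secretory class, 779 to 907 CPM in P7 and 469 to 938 CPM in adult libraries, and of the ER and Golgi class, 673 to 1054 CPM in P7 and 661 to 945 CPM in adult libraries, overlapped between the ages. Such a sum follows its most abundant members, and it is given as a description without a test.

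**Figure D2:**
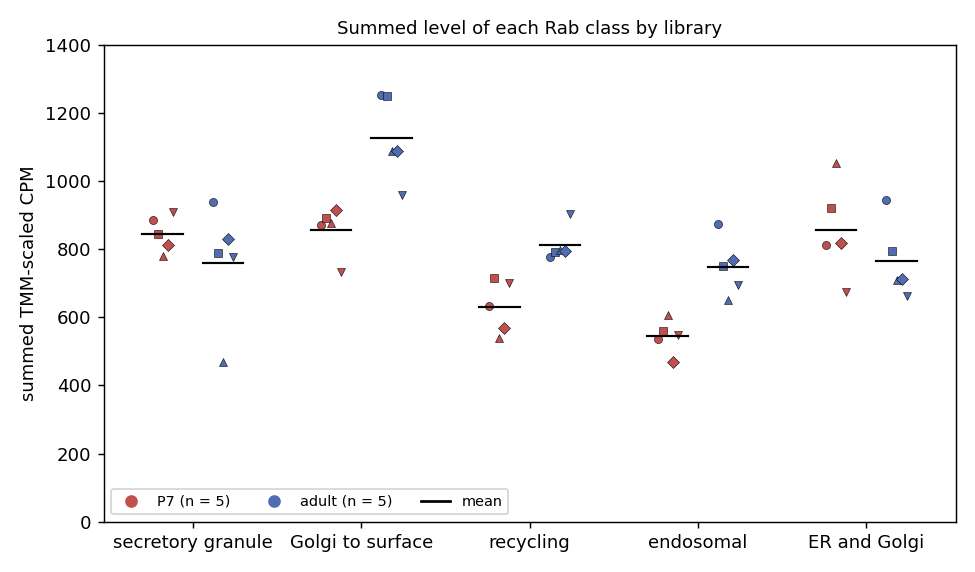
Summed TMM-scaled CPM of each Rab class (vertical axis, linear from 0) in every library, P7 left of adult, with the mean as a bar and marker shapes telling the libraries of a group apart. Recycling, endosomal and Golgi-to-surface sums do not overlap between the ages, and adult C, at 469 CPM, is the lowest point of the secretory class. The recycling sum follows Rab11a, its most abundant member.

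A few genes held most of the Rab counts. Rab27b made up 21.04 ± 2.17% of them at P7 and 16.8 ± 3.02% in adults, and Rab10 16.6 ± 1.62% and 17.95 ± 2.12% (SD, n = 5 each). Together with Rab11a, Rab22a and Rab6a these 2 held 64.3 ± 1.11% at P7 and 67.4 ± 1.82% in adults. Per kb of annotated exon (GENCODE M21, which may differ from the annotation used for counting), the highest level was that of Rab10, with 179 ± 18.8 CPM per kb at P7 and 218 ± 31.4 in adults. Rab11a followed with 132 ± 21.8 CPM per kb at P7 and 198 ± 15.9 in adults. Rab1b had rank 3 at P7 and 4 in adults, with 121 ± 31.5 CPM per kb at P7 and 77.3 ± 13.7 in adults, and Rab27b, whose transcript is long, had ranks 6 and 7, with 74.7 ± 5.65 CPM per kb at P7 and 68.0 ± 16.4 in adults. Neighbours in this order such as Rab2a, Rab6a and Rab27b at P7 differed by less than the spread between libraries of Rab6a.

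Secretory Rab genes were led by Rab27b, whose product docks secretory granules and sets the number and release of dense granules in mouse platelets. Rab27b was at 839.8, 789.6, 719.9, 766 and 873 CPM in P7 libraries, against 901, 769, 434, 792 and 735 CPM in adult libraries. All P7 libraries lay between the values of adult C and adult A, and adult C was the lowest of the 10. The log2 fold change was 0.14 ± 0.17 (adjusted p = 0.587 by edgeR's quasi-likelihood test). It was -0.01 without adult C, and 0.48 with the trend on GC content removed, where it passed (adjusted p = 0.0368, range over all settings 0.0368 to 0.955, same edgeR test).

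The other tested genes of this class did not pass either. Log2 fold changes of its 4 tested genes ran from 0.14 to 0.65, with a median of 0.46, against 0.05 over all tested genes. With 27.7% of all genes passing, 0 calls among 4 genes is no result about the class. Rab3d was at 26.0, 22.8, 30.5, 25.1 and 16.6 CPM in P7 libraries, against 8.58, 5.32, 20.8, 16.9 and 32.5 CPM in adult libraries. Rab3d, a docking factor of exocrine and haematopoietic granules, spread widely in adults, where B was lowest and H was the highest of all 10 libraries, and its log2 fold change was 0.53 ± 0.38. It was 0.35 without adult A, 0.29 without adult B and 0.90 without adult H, and passed in none of these fits. Rab32 was at 2.81, 3.66, 3.77, 7.79 and 4.42 CPM in P7 libraries, against 2.86, 1.89, 4.53, 2.65 and 2.35 CPM in adult libraries. Rab32, which together with Rab38 delivers cargo to lysosome-related organelles such as dense granules, was highest in P7 E, overlapped between the ages and had a log2 fold change of 0.65 ± 0.32, or 0.34 without P7 E. Rab37, a GTPase of granule release, was at 11.9 to 28.1 CPM in P7 and 7.56 to 25.1 CPM in adult libraries and had a log2 fold change of 0.39 ± 0.33. Adjusted p-values of these 3 genes in the same edgeR test were 0.334, 0.144 and 0.410.

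A further 7 secretory Rab genes had too few counts to be tested. Rab27a had 18, 0, 10, 16 and 2 counts in P7 libraries and 4, 6, 1, 1 and 7 counts in adult libraries, a small fraction of its paralog Rab27b, and the ages overlapped. Rab38 had 4, 7, 1, 0 and 0 counts in P7 libraries and 3, 2, 0, 0 and 0 counts in adult libraries. Rab3a had 6, 9, 11, 5 and 1 counts in P7 libraries and 0, 1, 0, 0 and 0 counts in adult libraries. Rab3a, known from synaptic vesicles, thus had 1 count in P7 I and in adult B, and more in the other P7 libraries than in any adult library. When no filter on low counts was applied, Rab3a passed by edgeR's quasi-likelihood test (adjusted p = 0.0325). The median log2 fold change over all genes in that fit was 0.24, against 0.05 with the filter. Rab3b had 0 counts in all 10 libraries, and Rab3c, Rab26 and Rab44 had 6, 15 and 7 counts in all.

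Of the 4 Rab genes that direct cargo from the Golgi and recycling endosomes to the surface, 1 was higher, 1 lower and 2 did not pass. Rab8b was at 169.6, 175, 199, 176 and 155 CPM in P7 libraries, against 340.1, 356, 283, 320.0 and 311 CPM in adult libraries. Each adult library exceeded each P7 library, the lowest adult value being that of C. Rab8b, which guides exocytic vesicles, fell by 0.88 ± 0.13 on the log2 scale (adjusted p = 0.000205, edgeR's quasi-likelihood test). It passed in every alternative fit run, with log2 fold changes of -0.93 to -0.52, the smallest with the GC trend removed.

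Rab13, a GTPase of surface delivery and cell junctions, moved the other way. Rab13 was at 22.3, 23.2, 25.2, 37.0 and 37.8 CPM in P7 libraries, against 14.3, 10.3, 17.1, 19.8 and 22.5 CPM in adult libraries. P7 E and I were the highest, while P7 A lay within the adult range, just under adult H. Rab13 rose by 0.79 ± 0.24 (adjusted p = 0.0209 in the edgeR test), and the call was lost without P7 E (0.67), adult A (0.73) or adult B (0.64). The call was also lost with letters A to C as a replicate block (0.75, adjusted p = 0.0697, same test). Rab8a was at 25.5, 19.7, 21.3, 25.1 and 21.4 CPM in P7 libraries, against 23.5, 17.0, 24.5, 22.8 and 20.5 CPM in adult libraries. The paralog of Rab8b thus overlapped between the ages, with a log2 fold change of 0.06 ± 0.17. Rab10, which moves the glucose transporter GLUT4 in fat cells, was at 517 to 677 CPM in P7 and 606 to 874 CPM in adult libraries with a log2 fold change of -0.28 ± 0.14. Neither passed (adjusted p = 0.826 and 0.137, edgeR's quasi-likelihood test).

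**Figure D3:**
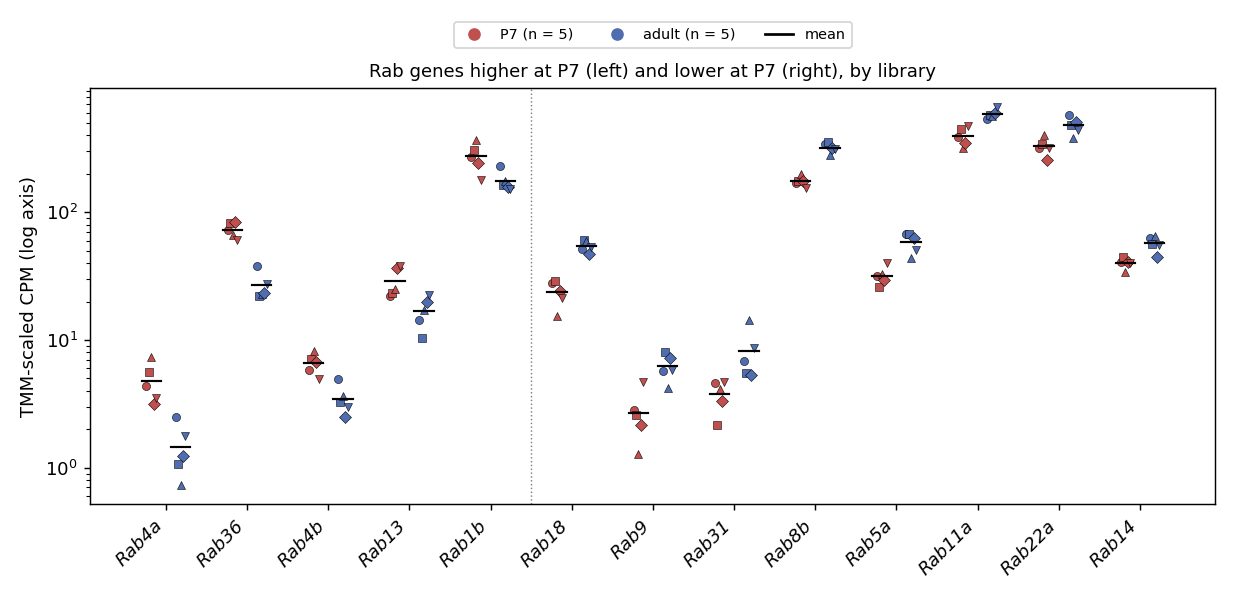
TMM-scaled CPM (log axis) of the 13 called Rab genes in every library, P7 in red left of adult in blue, with the mean as a bar and marker shapes telling the libraries of a group apart. Higher genes stand left of the dotted line and lower ones right of it, and Rab36, Rab4a, Rab4b, Rab8b, Rab18, Rab5a, Rab11a and Rab31 have no overlap between the ages.

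In the recycling class, the 2 genes of the Rab4 pair, which drive fast return from early endosomes to the surface, were higher at P7, and Rab11a, which serves the slower route through recycling endosomes, was lower. Rab4a was at 4.38, 5.57, 7.35, 3.16 and 3.51 CPM in P7 libraries, against 2.48, 1.07, 0.730, 1.24 and 1.78 CPM in adult libraries. All P7 values exceeded the highest adult value, that of A, although the level is low. Rab4a rose by 1.72 ± 0.35, the largest increase among the tested Rab genes (adjusted p = 0.00251, edgeR's quasi-likelihood test), and passed in all 19 alternative fits that tested it.

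Rab4b showed the same direction. Rab4b was at 5.87, 7.07, 8.23, 6.75 and 4.97 CPM in P7 libraries, against 4.96, 3.26, 3.65, 2.48 and 2.98 CPM in adult libraries. Adult A was just under P7 I, so the groups were separate by a narrow margin. Rab4b rose by 0.92 ± 0.24 (adjusted p = 0.0115), and the call was lost with the GC trend removed (0.55, adjusted p = 0.110; range over all settings 0.00221 to 0.121, edgeR's test in each but those of other tools). With letters A to C alone this call was lost as well, without a replicate block (0.80, adjusted p = 0.0703) and with one (0.81, adjusted p = 0.121, edgeR's test).

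Rab11a was at 391, 449, 322, 346 and 475 CPM in P7 libraries, against 543, 574, 572, 600.1 and 668 CPM in adult libraries. P7 C was lowest and P7 I came nearest to the adults, without overlap. Rab11a fell by 0.58 ± 0.14 on the log2 scale (adjusted p = 0.00621, edgeR's quasi-likelihood test). With the GC trend removed the value was -0.35 and the call was lost (adjusted p = 0.0670, range over all settings 0.000781 to 0.0670). The call was also lost with letters A to C as a replicate block (-0.58, adjusted p = 0.0561, edgeR's test). Rab11b was at 192, 214, 179, 179.6 and 181 CPM in P7 libraries, against 205, 189, 189.9, 161 and 199 CPM in adult libraries. This paralog overlapped between the ages, with a log2 fold change of 0.00 ± 0.13. Rab12, Rab35 and the epithelial Rab17 had log2 fold changes of 0.43 ± 0.23, 0.12 ± 0.20 and -0.96 ± 0.78 and did not pass. Rab25 and Rab15 were not tested, with 1 and 15 counts in all, those of Rab15 in P7 A, C and E alone.

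Endosomal Rab genes were lower at P7 in 5 of 11 tested, Rab9, Rab31, Rab5a, Rab22a and Rab14, and higher in 0, with a median log2 fold change of -0.51. Over all tested genes 13.9% were lower at P7. Rab5a acts in the fusion of early endosomes. Rab5a was at 31.5, 25.8, 32.9, 29.7 and 40.2 CPM in P7 libraries, against 68.1, 67.6, 44.2, 62.9 and 50.5 CPM in adult libraries. The groups did not overlap, with P7 I highest of its group and adult C lowest of its own. Rab5a fell by 0.87 ± 0.18 (adjusted p = 0.00222, edgeR's quasi-likelihood test) and passed in all 20 alternative fits.

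Rab22a was at 320.3, 341, 405, 259 and 319 CPM in P7 libraries, against 580.2, 482, 381, 509 and 443 CPM in adult libraries. Rab22a, which sorts cargo at early endosomes, was lower in 4 of 5 P7 libraries than in any adult library, while P7 C lay above adult C. Its decrease was -0.54 ± 0.15 (adjusted p = 0.0149 in the edgeR test), and the call was lost when the libraries were limited to letters A to C (-0.47, adjusted p = 0.0951; range over all settings 0.00421 to 0.181). Rab31 was at 4.62, 2.17, 4.14, 3.36 and 4.65 CPM in P7 libraries, against 6.86, 5.54, 14.5, 5.35 and 8.65 CPM in adult libraries. Rab31, a close relative of Rab22a that connects the trans-Golgi network with endosomes, was lower in each P7 library, and adult C stood above the other adults. The log2 fold change of Rab31 was -1.11 ± 0.31 (adjusted p = 0.0154) and -0.81 without adult C, which also passed (adjusted p = 0.0470, edgeR's quasi-likelihood test). Adjusted p-values of Rab31 over all settings, those of other tools included, ran from 0.00277 to 0.0470.

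Rab14 was at 41.2, 44.8, 34.0, 40.8 and 40.0 CPM in P7 libraries, against 63.5, 56.6, 65.7, 44.6 and 55.3 CPM in adult libraries. Adult G lay just under P7 B, and the other adult libraries were above all P7 libraries. Rab14, of traffic between Golgi and early endosomes, fell by 0.51 ± 0.15 (adjusted p = 0.0237 by edgeR's quasi-likelihood test). This call was the least stable of the 13, being lost with the GC trend removed (-0.36), with library size as the only scaling (-0.44), without the filter (-0.53), and without P7 C (-0.46), adult A (-0.48) or adult C (-0.46). The call was lost too with letters A to C as a replicate block (-0.67, adjusted p = 0.0736, edgeR's test). Adjusted p-values of Rab14 over all settings ran from 0.00567 to 0.106.

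Rab9, which returns receptors from late endosomes to the trans-Golgi network, was at 1.28 to 4.70 CPM in P7 and 4.24 to 8.07 CPM in adult libraries. P7 I, at 4.70 CPM, lay above adult C, and the log2 fold change was -1.20 ± 0.32 (adjusted p = 0.0111 in the same test). Rab7 was at 91.5, 93.9, 98.8, 92.8 and 104 CPM in P7 libraries, against 110.2, 92.2, 97.7, 105 and 92.7 CPM in adult libraries. Rab7, the main GTPase of late endosomes and lysosomes, overlapped between the ages, with a log2 fold change of -0.05 ± 0.13 (adjusted p = 0.810). The same was true of Rab5b, at 0.03 ± 0.26, Rab5c, at 0.17 ± 0.19, and Rab21, a factor of integrin uptake, at 0.02 ± 0.20, and of the low-level genes Rab7b and Rab24. Rab24 overlaps Prelid1 on the opposite strand by 1258 exon bases, and the library type does not mark strand, so its value is uncertain. The same holds for Rab2b, Rab6a, Rab10 and Rab11b, which overlap Tox4, Mrpl48, Rab10os and Gm17251 on the opposite strand, and for the untested Rab3a, Rab26 and Rab39b, which share exon bases with other counted genes. Rab20 and Rab9b had 5 and 8 counts in all and were not tested.

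Of 12 tested genes of the ER and Golgi class 2 were higher, 1 lower and 9 did not pass. Rab36 was at 72.3, 82.2, 66.0, 83.7 and 60.3 CPM in P7 libraries, against 38.3, 22.0, 23.1, 23.2 and 27.6 CPM in adult libraries. Rab36, a Golgi GTPase linked to the positioning of late endosomes and lysosomes, was higher in every P7 library by a wide margin, adult A being the highest adult. It rose by 1.44 ± 0.19 (adjusted p = 8.4e-05, edgeR's quasi-likelihood test, the smallest of the family) and passed in all 20 alternative fits, at 1.17 to 1.59.

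Rab1b was at 272, 309, 372, 245 and 179.8 CPM in P7 libraries, against 229, 164, 176, 157 and 152 CPM in adult libraries. Rab1b, of transport from ER to Golgi, reached its highest value in P7 C, and P7 I lay inside the adult range. The increase of Rab1b was 0.65 ± 0.19 (adjusted p = 0.0181), lost without P7 C (0.51) and with the GC trend removed (0.34, adjusted p = 0.171; range over all settings 0.00406 to 0.171, edgeR's quasi-likelihood test in these fits). With letters A to C as a replicate block Rab1b was not called (0.72, adjusted p = 0.0534, edgeR's test). Rab18 was at 28.1, 29.3, 15.5, 24.2 and 21.3 CPM in P7 libraries, against 52.0, 61.1, 60.2, 47.6 and 53.2 CPM in adult libraries. Rab18, which works at the ER and on lipid droplets, was lower in all P7 libraries, P7 C being the lowest. It fell by 1.21 ± 0.19 (adjusted p = 0.000325 in the same test) and passed in all 20 alternative fits.

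The remaining Golgi genes did not separate the ages. Rab1a was at 15.8, 17.5, 11.96, 15.4 and 7.11 CPM in P7 libraries, against 14.2, 17.6, 12.2, 15.5 and 12.9 CPM in adult libraries. Rab1a, the paralog of Rab1b, had a log2 fold change of -0.09 ± 0.23. Rab2a and Rab6a, of traffic between ER and Golgi and within the Golgi, are abundant, at 140.3 to 197 CPM in P7 and 148 to 178 CPM in adult libraries and at 197 to 385 CPM in P7 and 251.8 to 434 CPM in adult libraries, and had log2 fold changes of 0.07 ± 0.14 and -0.15 ± 0.19. Rab29 and Rab43 had log2 fold changes of 1.25 ± 0.50 and 0.91 ± 0.39 at means of 1.33 and 1.40 CPM at P7, and did not pass (adjusted p = 0.0798 and 0.0998, same edgeR test). Rab6b was at 1.49, 0.361, 0.923, 0.0799 and 0.729 CPM in P7 libraries, against 0.906, 0.730, 1.27, 0.257 and 0.0573 CPM in adult libraries. Rab6b, the paralog of Rab6a, spread over a wide range at both ages, and its log2 fold change was 0.15 ± 0.72. The remaining tested genes Rab2b, Rab30 and Rab33b had log2 fold changes of 0.25 ± 0.26, -0.53 ± 0.38 and -0.06 ± 0.62. Rab34, Rab19, Rab39, Rab39b and Rab33a were not tested. Rab34 had 14 counts at P7, 8 in library A and 6 in C, and 0 in adults.

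Among Rab genes outside these routes, Rab28, a ciliary GTPase, was at 58.6 to 75.0 CPM in P7 and 50.3 to 67.3 CPM in adult libraries with a log2 fold change of 0.18 ± 0.15. Rab40b and Rab40c, which act as substrate receptors of cullin ubiquitin ligases, had 0.27 ± 0.45 and -0.25 ± 0.47, and the 3 genes did not pass. Rab23 and Rab42 were not tested, with 16 and 3 counts in all. The 18 untested members together held 0.0265% of all Rab counts. Rows of the processed pseudogenes Rab11b-ps2 and Rab7-ps1 averaged 1.82 and 0.924 CPM over P7 and 2.33 and 1.09 CPM over adult libraries, small beside Rab11b and Rab7. Of the 13 called genes 5 share exon bases with another annotated gene (Rab4b, Rab5a, Rab11a, Rab18 and Rab22a), and those partners either had 0 counts in all libraries or no row in the tables. Rab4b shares 1280 exon bases with Gm21983 on the same strand. Rab43, which was not called, shares 4164 with Gm45140, also on the same strand and at 0 counts. How reads in shared exons were counted is not known here, so the levels of Rab4b and Rab43 are uncertain too.

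Paralogs were also compared within libraries, as the share of one gene in the summed raw counts of a pair, which does not depend on scaling between libraries. Of 12 pairs, 4 differed between the ages in a two-sided exact permutation test of the mean share, in which the smallest possible p is 0.0079, after Benjamini-Hochberg adjustment over the pairs. Rab8a held 11.5 ± 1.51% at P7 and 6.37 ± 1.22% in adults of the Rab8a and Rab8b counts (SD, n = 5 each), and ranges of 9.66 to 13.1% at P7 and 4.57 to 7.99% in adults did not overlap (exact permutation p = 0.0079, adjusted 0.0476). Rab11b held 32.6 ± 3.06% at P7 and 24.2 ± 2.34% in adults of the Rab11a and Rab11b counts, at 27.6 to 35.8% at P7 and 21.2 to 27.4% in adults, also without overlap (exact permutation p = 0.0079, adjusted 0.0476). In both pairs the abundant member, Rab8b or Rab11a, was lower at P7 and its partner was not called.

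Rab5c held 35.5 ± 7.43% at P7 and 21.5 ± 5.36% in adults of the counts of Rab5a and Rab5c, and Rab1a 4.74 ± 1.21% at P7 and 7.75 ± 1.62% in adults of those of Rab1a and Rab1b (SD, n = 5 each; exact permutation p = 0.0159, adjusted 0.0476, for both). Here 1 or more libraries of the ages overlapped, since the ranges were 28.1 to 46.8% at P7 and 17.0 to 28.8% in adults for Rab5c and 3.12 to 5.93% at P7 and 5.82 to 9.65% in adults for Rab1a. The Rab4b share of the Rab4 pair, 58.6 ± 5.77% at P7 and 70.9 ± 8.33% in adults, did not pass (exact permutation p = 0.0317, adjusted 0.0635). No pair passed without adult B, C or G. With 1 library fewer there are fewer splits, so adjusted p-values move in coarse steps. They were 0.0635 for both Rab8a and Rab11b in each of these fits (exact permutation test), so the losses say little about the shares. In these fits the differences in share for Rab8a and Rab11b were 4.66 to 5.52 and 7.54 to 8.48 percentage points, against 5.11 and 8.31 with all 10 libraries. In each of the 4 pairs the member that gained share at P7 had the higher transcript GC content, 50.6% for Rab8a against 40.6% for Rab8b, 53.9% for Rab11b against 43.6% for Rab11a, 55.8% for Rab5c against 44.5% for Rab5a and 56.1% for Rab1b against 41.7% for Rab1a. The Rab4 pair, which did not pass, went the other way: Rab4a gained share at P7 and had the lower GC content, 53.5% against 58.1% for Rab4b. The part of GC content in these shares was not tested.

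**Figure D4:**
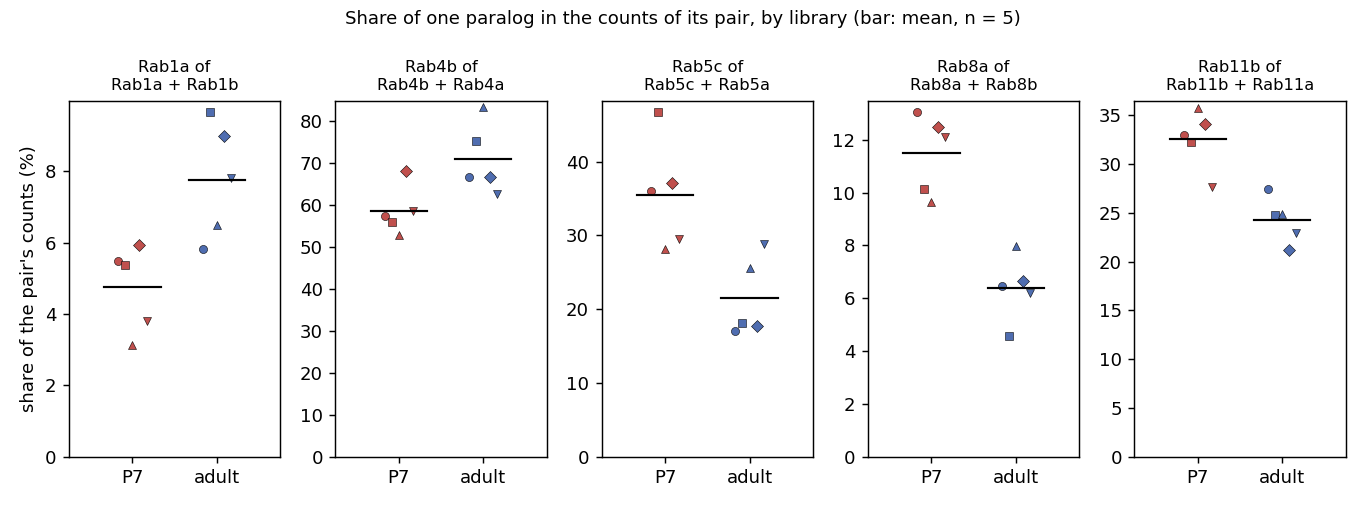
Share of the named paralog in the raw counts of its pair (vertical axis in %, from 0) in each library, P7 left of adult, with the mean as a bar and marker shapes telling the libraries of a group apart. Rab8a and Rab11b shares do not overlap between the ages, at 9.66 to 13.1% at P7 and 4.57 to 7.99% in adults for Rab8a and 27.6 to 35.8% at P7 and 21.2 to 27.4% in adults for Rab11b.

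The start regions of the 3 pairs in which 1 member was lower at P7 and its partner was not called, and that of Rab4b, show how the genes differ where transcription begins. Each is the 250 bases before the annotated start, 5′ to 3′ on the gene's own strand, from RefSeq on GRCm38.p6 (the sources used here do not state the build used for counting). Capitals mark matches, on either strand, to 6 motifs, chosen with the results known. AGATAA stands for the erythroid and megakaryocyte factor GATA1, CCGGAA for the ETS family, TGTGGT for the RUNX family, TGACTCA for AP-1 and NF-E2, GGGCGG for the SP and KLF family and TCACGTG for the lysosomal regulators MITF and TFEB, and no motif contains another.
Rab8b, chr9:66919706-66919955, minus strand: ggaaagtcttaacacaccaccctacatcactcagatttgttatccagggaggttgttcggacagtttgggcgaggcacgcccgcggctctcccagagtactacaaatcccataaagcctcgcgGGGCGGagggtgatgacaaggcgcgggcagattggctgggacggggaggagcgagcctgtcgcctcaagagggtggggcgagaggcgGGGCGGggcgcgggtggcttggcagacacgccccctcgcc
Rab8a, chr8:72160950-72161199, plus strand: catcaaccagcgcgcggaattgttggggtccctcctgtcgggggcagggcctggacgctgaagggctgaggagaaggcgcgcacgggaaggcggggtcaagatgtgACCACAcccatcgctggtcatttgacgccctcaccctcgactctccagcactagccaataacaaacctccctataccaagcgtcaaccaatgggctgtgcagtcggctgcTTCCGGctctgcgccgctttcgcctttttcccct
Rab5a, chr17:53478984-53479233, plus strand: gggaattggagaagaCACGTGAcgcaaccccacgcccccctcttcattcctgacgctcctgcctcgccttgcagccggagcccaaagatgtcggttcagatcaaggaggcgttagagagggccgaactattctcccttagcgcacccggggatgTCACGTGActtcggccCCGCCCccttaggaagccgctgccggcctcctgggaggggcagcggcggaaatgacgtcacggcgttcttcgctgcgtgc
Rab5c, chr11:100738216-100738465, minus strand: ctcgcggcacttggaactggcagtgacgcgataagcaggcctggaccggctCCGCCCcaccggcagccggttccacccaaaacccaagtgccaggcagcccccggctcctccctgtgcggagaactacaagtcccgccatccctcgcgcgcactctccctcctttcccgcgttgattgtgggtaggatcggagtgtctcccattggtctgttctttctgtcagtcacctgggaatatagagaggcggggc
Rab11a, chr9:64737757-64738006, minus strand: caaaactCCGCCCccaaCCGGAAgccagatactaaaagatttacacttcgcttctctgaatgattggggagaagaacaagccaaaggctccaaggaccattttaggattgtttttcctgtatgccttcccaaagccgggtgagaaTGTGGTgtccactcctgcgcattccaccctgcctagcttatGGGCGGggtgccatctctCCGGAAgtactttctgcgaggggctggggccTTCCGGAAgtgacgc
Rab11b, chr17:33760487-33760736, minus strand: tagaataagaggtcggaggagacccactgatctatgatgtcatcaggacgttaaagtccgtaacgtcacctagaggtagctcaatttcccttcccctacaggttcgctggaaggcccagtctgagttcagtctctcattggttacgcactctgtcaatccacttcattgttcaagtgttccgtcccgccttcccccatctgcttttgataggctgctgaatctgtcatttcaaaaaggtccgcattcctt
Rab4b, chr7:27178884-27179133, minus strand: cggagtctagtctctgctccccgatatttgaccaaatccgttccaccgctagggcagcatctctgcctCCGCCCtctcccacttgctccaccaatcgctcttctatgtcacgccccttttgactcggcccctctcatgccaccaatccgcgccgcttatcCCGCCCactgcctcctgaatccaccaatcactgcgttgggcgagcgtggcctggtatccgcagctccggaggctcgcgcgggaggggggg

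The window of Rab5a held TCACGTG, found in 3.15% of 27025 promoters and 5.17% of those of tested genes, and that of Rab5c did not. Rab11a had a match to the ETS, the RUNX and the SP and KLF motif, and the window of Rab11b had none to the 6 motifs. Rab8a had CCGGAA and TGTGGT where Rab8b had GGGCGG. For reference, CCGGAA was found in 12.2% of all promoters and 23.9% of those of tested genes, TGTGGT in 14.2% and 10.2%, and GGGCGG in 32.9% and 60.5%. AGATAA was in 10.2% and 5.77% and TGACTCA in 4.43% and 3.04%, and neither was in these 7 windows. Over the 10 called Rab genes with a window examined, GGGCGG was in 2 of 3 higher and 6 of 7 lower genes, and CCGGAA in 1 and 1. A match is a run of letters, not a bound site.

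Regulators and effectors of Rab proteins were examined as lists. Of 38 tested effectors 2 were higher and 7 lower, of 39 exchange factors 3 and 7, of 27 GTPase-activating proteins 1 and 2, and of 7 genes of prenylation and membrane extraction 0 and 2. These shares, 23.7%, 25.6%, 11.1% and 28.6%, stand beside the 27.7% of all genes, and median log2 fold changes were 0.03, -0.04, 0.10 and 0.17. The 4 tested Rab-like GTPases had no call, with Ift22 at 0.19 ± 0.19 and Ift27, a small GTPase of ciliary transport, at 0.64 ± 0.25 (adjusted p = 0.504 and 0.0744 by edgeR's quasi-likelihood test). Ift27 passed with the filter of 5 CPM in 5 libraries (0.71, adjusted p = 0.0395) and with library size as the only scaling (0.71, adjusted p = 0.0490), with a range over all settings of 0.0395 to 0.442 in the same edgeR test.

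The smallest p of these lists was that of Sytl4, which encodes the Rab27 and Rab8 effector granuphilin. Sytl4 averaged 279.7 ± 36.5 CPM over P7 and 1108 ± 307 CPM over adult libraries (SD, n = 5 each), at 249.6 to 342 CPM in P7 and 820.1 to 1533 CPM in adult libraries, so that the highest P7 library was far below the lowest adult one. It fell by 1.99 ± 0.18 on the log2 scale (adjusted p = 8.77e-06, edgeR's quasi-likelihood test), while its partner gene Rab27b did not pass. Unc13d, which encodes the Rab27 effector Munc13-4 that primes dense granules for release, was added after its values were seen. It averaged 165 ± 25.3 CPM over P7 and 226 ± 34.8 CPM over adult libraries and fell by 0.45 ± 0.15 (adjusted p = 0.0404 in the edgeR test), a call lost in 12 of 20 alternative fits (adjusted p over all settings 0.000903 to 0.152).

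The 4 other effectors named were lower at P7. Log2 fold changes were -1.14 ± 0.21 for the Rab11 effector gene Wdr44, -0.90 ± 0.20 for Uso1, which encodes the Rab1 tether p115, -1.76 ± 0.33 for the Rab6 motor adaptor gene Bicd1 and -1.36 ± 0.33 for Eea1, the tether that Rab5 recruits to early endosomes. The last 2 are at low levels, 1.82 ± 0.425 CPM over P7 and 6.19 ± 2.94 CPM over adult libraries for Bicd1 and 1.82 ± 0.646 CPM over P7 and 4.67 ± 1.52 CPM over adult libraries for Eea1. In these 4 genes every P7 library lay below every adult library. They were named for a small p, so this separation is no further result, and groups did not overlap for 19.8% of all tested genes. The 2 higher effectors were not among those named.

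Among exchange factors, Hps4 rose by 1.58 ± 0.39, at 8.66 ± 2.12 CPM over P7 and 2.88 ± 1.70 CPM over adult libraries. Its product forms, with that of Hps1, the exchange factor of Rab32 and Rab38. Rin2, a Rab5 exchange factor gene, had a log2 fold change of -1.30 ± 0.29. Subunit genes of the TRAPP complexes, which act on Rab1 and Rab11, went both ways, with Trappc6a at 0.93 ± 0.19, Trappc2 at -0.98 ± 0.19 and Trappc10 at -0.96 ± 0.20. The log2 fold change of Trappc6a with the GC trend removed was 0.46, and the call was lost (adjusted p = 0.0976, edgeR's test). Its adjusted p-values over all settings, those of other tools included, ran from 0.000141 to 0.0976. Trappc10 lost its call when the libraries were limited to letters A to C (-0.80, adjusted p = 0.0540, edgeR's test). Its adjusted p-values over all settings, again with those of other tools, ran from 3.97e-05 to 0.0924.

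Of GTPase-activating proteins, Evi5l was at 1.14 ± 0.20, Tbc1d5, which acts on Rab7, at -1.66 ± 0.38, and Tbc1d23, whose product tethers endosome-derived vesicles at the trans-Golgi, at -0.94 ± 0.22. Gdi2, one of the GDP dissociation inhibitors that all Rab proteins share, averaged 124 ± 17.0 CPM over P7 and 238 ± 59.0 CPM over adult libraries, and fell by 0.94 ± 0.18 with no overlap. Rabif, which stabilises and activates exocytic Rab proteins, was at -0.82 ± 0.26. Its call was lost in 8 of 20 alternative fits (adjusted p over all settings 0.00696 to 0.0717). Adjusted p-values of the genes named from these lists other than Ift22 and Ift27 ran from 8.77e-06 for Sytl4 to 0.0404 for Unc13d by edgeR's quasi-likelihood test.

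Fold changes of Rab genes went with transcript GC content. Across the 41 tested genes, which share libraries and are not replicates, Spearman's rho between GC content and log2 fold change was 0.47, and it was 0.28 across 8028 tested genes with a GC value. The 5 higher Rab genes had a median GC content of 55.5% and the 8 lower ones one of 44.3%, against 53.1% and 47.3% for all higher and lower genes. Rab36 was at 55.5%. Rab8b, at 40.6%, and Rab27b, at 40.8%, were the poorest in GC of the tested Rab genes. With a GC trend fitted in each library and removed, 10 Rab genes were called, of which 9 were among the 13. Rab11a, Rab14, Rab1b and Rab4b lost their calls and Rab27b gained one. Since the trend differs between the ages, this fit also removes any age difference that runs along GC content, and the part of GC content in the results was not tested.

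**Figure D5:**
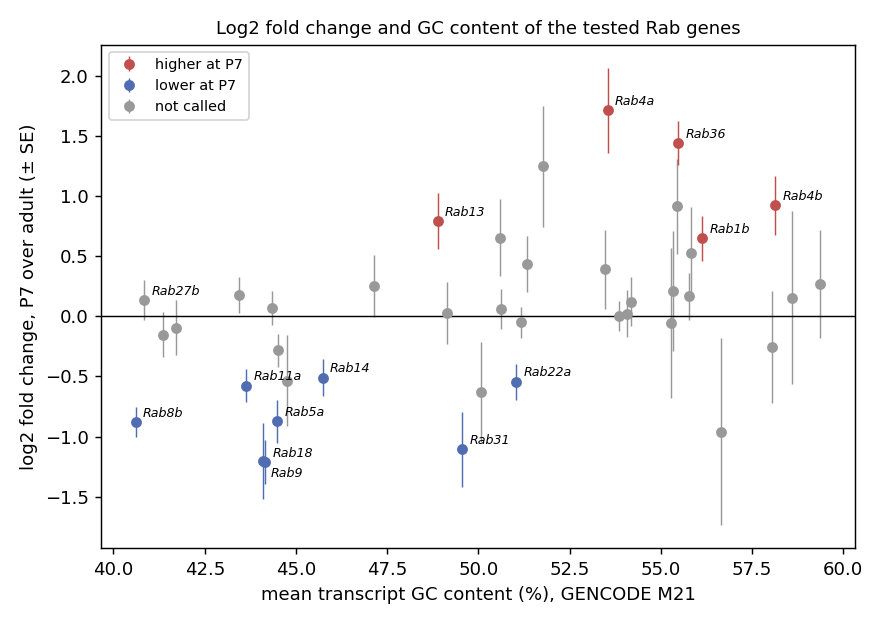
Log2 fold change (P7 over adult, SE bars) of the 41 tested Rab genes against the mean GC content of their annotated transcripts in %. The 8 lower genes in blue lie between 40.6% and 51.0%, and the 5 higher genes in red between 48.9% and 58.1%.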

How the data were processed

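Platelet RNA of P7 and adult mice was sequenced in 10 libraries. RNA came from a Trizol extraction, cDNA was amplified with a SMARTer low-input kit and libraries were made with Nextera XT, a kit that does not mark strand, for single-end reads, per the labels' protocols. The authors deposited 1 table per library of unnormalized read counts by gene symbol. The submitters' processing notes name fastp 0.23.1, STAR 2.7.9a, Subread 2.0.1, featureCounts and Salmon 1.5.2 without their roles. No molecular identifiers are named, so depth limits cover counting error only, and 3 counts were taken as the floor.

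Genes were kept with filterByExpr (minimum count 10, minimum total 15), scaled with TMM and tested with edgeR 4.0.16 (quasi-likelihood F test, robust dispersions, R 4.3.3) with age as the only term. P-values were adjusted by Benjamini-Hochberg over all 8198 genes. The SE is the log2 fold change divided by the square root of F. The test was tried on simulated counts before use. In that run of 7880 genes it recovered 21.9% of 2-fold and 79.6% of 4-fold changes, and 5.94% of its calls were false. A gene that did not pass may thus still differ between the ages. These rates belong to that run alone, and recovery in the platelet counts themselves was not tested. In the platelet counts 27.7% of the tested genes passed, among them Rab14 at a log2 fold change of -0.51. Alternatives were other scalings, filters, DESeq2 1.42.0, limma-voom (limma 3.58.1), each library left out, the letters A to C as a block and, added after the data were seen, removal of a trend on GC content (lowess, span 0.5). No 2 libraries were identical.

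Members, classes, lists and pairs were chosen with earlier results of these data known. Values of all libraries are given for called members averaging 5 CPM or more and for a set of members related to platelets. From each list up to 5 called genes with the smallest p were named, or the 2 most abundant. Promoter windows are those of the 6 called members with the smallest p among those averaging 5 CPM or more over all libraries. This leaves out Rab4a and Rab9. Windows of the paralogs Rab8a, Rab5c and Rab11b, which were not called, are shown beside them. No window of Rab36 or Rab18 is shown. Rab pairs with under 10 counts in a library were to be left out, and all 12 passed. Dennd2b was not analysed here.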

Additional observations from a re-analysis of the deposited data

Results flagged for a closer look

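Adult B had a Rab3a share of 0.8% of the Rab3a and Rab3d counts, while the other 4 adult libraries were at 0, which put it far from the rest of its group. This share rests on 1 count of Rab3a. Of 68 groups of 5 libraries examined in this way, it was the 1 that stood apart, where about 1 in 20 groups would by chance.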

How the results depend on the processing

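The 13 Rab calls were kept with RLE or upper quartile scaling, DESeq2 and limma-voom, and 12 were kept with library size alone and without a filter, where Rab3a was added. A filter of 5 CPM in 5 libraries left 26 Rab genes and 10 calls, 3 of the 13 not being tested. Leaving out 1 library kept 11 to 13 of the calls, with 1843 to 2388 genes called in all. With the letters A to C as a replicate block, 1416 genes and 8 Rab genes were called (7 of the 13, and Rab3d), against 1886 and 11 in the same 6 libraries without the block. Rab11a, Rab13, Rab14, Rab1b, Rab22a and Rab4b lost their calls under the block, and Rab22a and Rab4b also without it. Under the block Rab3d was at 1.38 and Rab32 at 0.180, against 1.17 and 0.117 without it. Libraries of the same letter did not deviate together (correlations -0.04, 0.06 and 0.01 for A, B and C, with no P7 library correlating best with the adult of its letter), so the letters were not taken as pairs. The number of paralog pairs that passed was 4 with counts thinned to the shallowest library and 0 to 6 without 1 library. Among the genes and shares named, signs changed only for some that had not passed. Rab8a was at -0.00433, Rab6b at -0.235, Rab1a at 0.233 and Rab11b at -0.201 with the GC trend removed. Rab11b was at -0.0197 in DESeq2, -0.0197 with RLE and -0.0176 without a filter. Rab7 was at 0.0253 with the filter of 5 CPM, 0.0118 with library size and 0.0105 with upper quartile scaling. Under the block and in its 6 libraries without it Rab11b was at -0.0309 and -0.0281, Rab6b at -0.238 and -0.0731, and Rab1a at 0.0113 and 0.0117. Without 1 library, log2 fold changes were -0.0126 to 0.214 for Rab27b, -0.0319 to 0.104 for Rab8a, -0.0768 to 0.0224 for Rab11b, -0.327 to 0.534 for Rab6b and -0.202 to 0.0620 for Rab1a, and the differences in share were -0.00635 to 0.127 percentage points for Rab6b with Rab6a and -2.04 to 0.207 for Rab32 with Rab38. Causes of these changes were not tested. Depth limited Rab genes with few counts: 18 could not be tested.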
